A study of Mus musculus with 6 samples.

Results

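Decorin and 9 further core-protein genes of matrix and cell-surface proteoglycans were followed in C2C12 cells after knockdown of Cox7a2l. The genes are the rows of the deposited count table whose identifier, without its version, carries the symbol Dcn, Bgn, Lum, Fmod, Vcan, Gpc1, Gpc4, Sdc1, Sdc2 or Sdc4. All 10 were found once each among 52740 gene rows. C2C12 is an established line of mouse myoblasts, the precursor cells of skeletal muscle, and was kept in medium with 10% fetal bovine serum. Of the 6 samples, 3 received a random control siRNA (siCTRL) and 3 an siRNA against Cox7a2l (siCOX7A2L), with replicate numbers 1 to 3 in each group. Total RNA was depleted of ribosomal RNA and sequenced as 6 strand-marked libraries. Cox7a2l, which encodes an inner-membrane protein that links respiratory complexes III and IV, stood at 58.0, 59.5 and 58.9 CPM (counts scaled to library depth) in siCTRL replicates 1, 2 and 3. In the siCOX7A2L libraries it stood at 6.72, 5.90 and 3.59 CPM, so the labels hold. Whether the replicates were grown as separate cultures is not stated in the labels. The p-values therefore reflect only the spread between libraries, which may be technical.

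Decorin was chosen by its adjusted p-value in the comparison of siCOX7A2L with siCTRL, and the other 9 genes were added as members of related families. Fold changes and calls of the 10 genes in this comparison are therefore given as a description and support nothing further. Fold changes were fitted with edgeR within pairs of equal replicate number (a block), with p-values adjusted over all 15022 genes tested and a threshold of 0.05.

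Proteoglycans are core proteins that carry long sulfated sugar chains, the glycosaminoglycans, usually attached at a serine that is followed by glycine. Small leucine-rich proteoglycans such as decorin and biglycan coat collagen fibrils and bind growth factors, among them TGF-beta and, for decorin, myostatin. Versican swells the matrix by binding hyaluronan, while syndecans and glypicans hold heparan sulfate at the cell surface, where it presents FGF and other ligands to their receptors. In muscle, syndecans and glypican-1 are known for their part in satellite cell and myoblast signalling, and decorin for its abundance in the connective tissue around fibres.

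The coding sequences show how the families carry their chains. The stretches below are from the GENCODE M21 transcripts on GRCm38, the longest coding sequence of each gene, counted in codons from the start codon. Decorin, biglycan and glypican-1 are shown around serine-glycine codon pairs, which are in capitals.
Dcn, codons 29 to 42, chromosome 10, plus strand: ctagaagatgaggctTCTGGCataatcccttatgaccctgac
Bgn, codons 37 to 53, chromosome X, plus strand: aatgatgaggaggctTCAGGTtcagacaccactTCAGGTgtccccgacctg
Gpc1, codons 481 to 494, chromosome 1, plus strand: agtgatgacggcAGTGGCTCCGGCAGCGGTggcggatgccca
Decorin has its first such pair at codon 34, the known attachment site of its single chain, and biglycan has its first at codon 42 with another ending at codon 49. Glypican-1 has 3 pairs in a row at codons 485 to 490. Over the whole coding sequence there are 2 pairs in Dcn, 4 in Bgn, 2 in Lum, 30 in Vcan, 6 in Gpc1, 4 in Gpc4, 5 in Sdc1, and 3 each in Sdc2 and Sdc4. Fmod has 0, and fibromodulin is known to carry keratan sulfate on asparagine instead. Not every pair carries a chain.

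The syndecans end in a shared tail that binds PDZ-domain proteins such as syntenin. The last 10 codons before the stop are shown, with the final 4 in capitals.
Sdc1, chromosome 12, plus strand: aaacccaccaagcaggagGAGTTCTACGCC
Sdc2, chromosome 15, plus strand: cagaaggcacccactaagGAGTTTTATGCA
Sdc4, chromosome 2, minus strand: aaaaaagcccccaccaatGAGTTCTACGCA
The final 4 codons encode the same residues in all 3 genes. Of the 30 bases shown, Sdc2 and Sdc4 share 22, Sdc1 and Sdc4 share 17, and Sdc1 and Sdc2 share 13.

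The libraries held 9890218 to 17077826 estimated counts, the fewest in siCOX7A2L replicate 3. Myoblast markers were present in every library, for example Myod1 at 118 to 161 CPM and Pax7 at 24.1 to 66.4 CPM. The replicate 3 library of each group stood apart from the other 4. The summed level of 8 markers of differentiated muscle was 254, 242 and 1340 CPM in siCTRL replicates 1, 2 and 3 and 571, 237 and 2395 CPM in siCOX7A2L. Most of this sum was Ttn (titin), at 244, 232 and 1192 CPM in siCTRL and 543, 228 and 2006 CPM in siCOX7A2L. Of 9 fibroblast markers other than the proteoglycans, Tcf21 was at 0 in every library and the sum was 19.2 to 29.2 CPM in siCTRL and 21.7 to 27.4 CPM in siCOX7A2L. Endothelial, leukocyte, adipocyte and Schwann cell markers (4 or 5 genes each) summed to at most 1.04, 3.30, 0.449 and 2.25 CPM in any library. Because these are bulk samples, fewer cells that express a gene and less RNA of it per cell cannot be told apart.

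**Figure D1:**
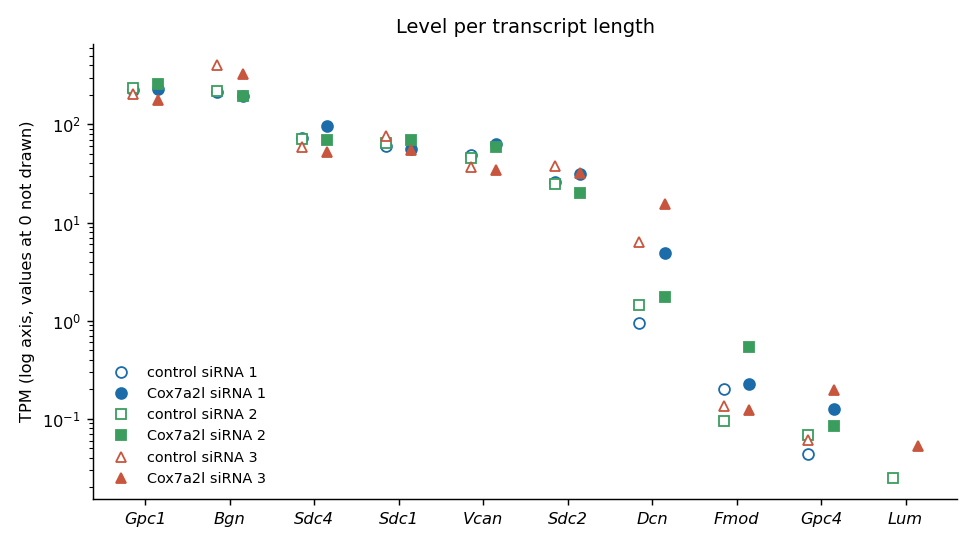
Level per transcript length of the 10 genes in the 6 libraries (TPM, log axis), ordered by their median, with open symbols for control siRNA, filled symbols for Cox7a2l siRNA and a shape for each replicate number. Gpc1 and Bgn lie between 179 and 406 TPM, Dcn spreads from 0.958 to 15.5 TPM, and the 3 lowest genes stay under 1 TPM.

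Per transcript length, glypican-1 and biglycan were the most abundant of the 10. Measured in the authors' TPM, which corrects counts for transcript length, Gpc1 ran from 179 to 259 TPM and Bgn from 194 to 406 TPM over the 6 libraries. Gpc1 came first in replicates 1 and 2 of each group and Bgn in replicate 3, so their order was not stable. Together these genes made up 62.6% to 73.7% of the summed TPM of the 10. Sdc4 (51.9 to 96.6 TPM), Sdc1 (54.3 to 77.0 TPM) and Vcan (34.1 to 62.8 TPM) followed with overlapping ranges, and Vcan also overlapped Sdc2 (20.1 to 37.8 TPM). Dcn was the seventh in each library, at 0.958 to 15.5 TPM, below every Sdc2 value. Fmod (0.0958 to 0.541 TPM), Gpc4 (0.0437 to 0.195 TPM) and Lum (0 to 0.0531 TPM) were the lowest, and Fmod and Gpc4 overlapped. The plot of levels per length shows this order. Biglycan, the nearest relative of decorin in the group, thus exceeded it by 20.9 to 224 times per length within a library. Versican has transcripts of very different length, so its TPM depends on how they were weighed.

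**Figure D2:**
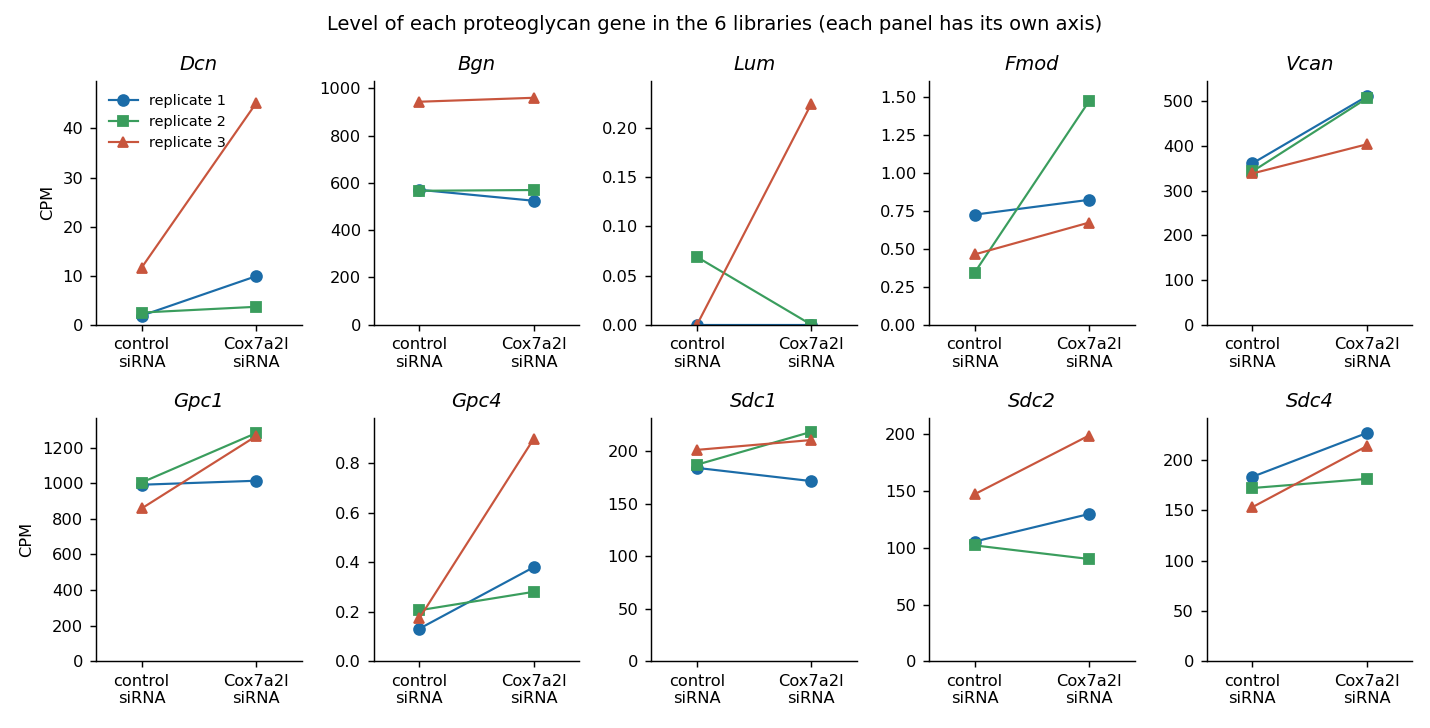
CPM of each gene in control siRNA and Cox7a2l siRNA libraries, with a line joining libraries of the same replicate number and a separate axis, starting at 0, for each gene. Dcn is highest in the replicate 3 libraries (11.7 and 45.1 CPM), as is Bgn (944 and 960.3 CPM), while Vcan and Gpc1 have all Cox7a2l siRNA libraries above all control libraries.

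Among the small leucine-rich proteoglycans, decorin was higher in the siCOX7A2L library of each pair, and biglycan stayed at the control level. Dcn stood at 1.85, 2.48 and 11.7 CPM in siCTRL replicates 1, 2 and 3, which rested on 28, 36 and 201 estimated counts. In siCOX7A2L replicates 1, 2 and 3 it stood at 9.89, 3.65 and 45.1 CPM, from 156, 52 and 402 counts. The groups overlapped, because control replicate 3 lay above siCOX7A2L replicates 1 and 2. Within pairs 1, 2 and 3 the level was 5.35, 1.47 and 3.87 times that of the control. The group means were 5.33 ± 5.49 and 19.6 ± 22.4 CPM (SD, n = 3 each), and the fitted log2 fold change was 1.72 ± 0.30 (SE, edgeR adjusted p = 0.0419). In the authors' deposited table the log2 fold change of Dcn was 1.76 with adjusted p = 7.46e-05. The call was lost while the log2 fold change stayed near this size without the block (1.85, edgeR adjusted p = 0.822), when scaled by library size alone (1.65, adjusted p = 0.0622) and when pair 3 was left out (1.54, adjusted p = 0.209). On TPM with limma the log2 fold change was 1.11 (adjusted p = 0.327). Single libraries mattered in the unblocked fit, whose estimate ran from 0.33 when siCOX7A2L replicate 3 was left out to 3.16 when siCTRL replicate 3 was.

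Decorin differed more between replicate 3 and the other replicates than between groups in the fit (log2 fold change 1.72). On the log2 scale, replicate 3 lay above the mean of replicates 1 and 2 by 2.37 in siCTRL and by 2.88 in siCOX7A2L. The sum of differentiated muscle markers given above, mostly Ttn, was likewise highest in siCOX7A2L replicate 3, then siCTRL replicate 3, then siCOX7A2L replicate 1. These are the same 3 libraries in the same order as for decorin. The other 3 libraries were ordered differently in the sum. Among these markers Tnnt1, the slow troponin T, and Acta1, the skeletal alpha-actin, rose (log2 fold change 2.03 and 1.14, edgeR adjusted p = 0.0023 and 0.0407), 2 of 7 tested beside 0.726% of all genes, and DESeq2 called 4 of 7, with Myh3 and Ttn. Both edgeR calls were lost without the block (adjusted p = 0.846 and 0.927) and on TPM with limma (0.136 and 0.353), and that of Acta1 also by library size alone (0.064) and with the replicate 3 term (0.055). Leaving out pair 3 ended the call of Acta1 (log2 fold change 0.95) but not Tnnt1 (1.90), and without the block and siCOX7A2L replicate 3 they stood at -1.60 and -0.15. Mymx, Myog and Mymk, on the same marker list, did not pass (log2 fold change 1.50, 0.90 and -0.04, edgeR adjusted p = 0.138, 0.616 and 0.978). In pair 2, Myog, Mymk, Myh3 and Ttn stood at 0.353, 0.233, 0.913 and 0.985 times the control. Tnnt1, Acta1, Mymx and Ckm lay above the control in that pair. The part of these markers' change in that of decorin was not tested. The fibroblast markers differed among themselves. Postn (periostin) stood at 2.18, 2.00 and 15.4 CPM in siCTRL and at 3.55, 3.30 and 11.3 CPM in siCOX7A2L, highest in the replicate 3 libraries like decorin. Dpt was highest in the same 2 libraries, at 0.348 and 1.24 CPM from 6 and 11 counts, and was too low to be tested. Thy1, also too low to be tested, was lowest there, at 0.290 and 0.112 CPM. Pdgfra was lowest there too, with 14.4, 14.9 and 11.4 CPM in siCTRL and 14.7, 21.6 and 10.2 CPM in siCOX7A2L. The part of fibroblast genes in the result for decorin was not tested.

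Biglycan, which shares its fold and its collagen and TGF-beta binding with decorin, was at 571, 567 and 944 CPM in siCTRL replicates 1, 2 and 3. It was at 525, 570.0 and 960.3 CPM in siCOX7A2L, so each library lay close to its pair and the replicate 3 libraries were high in both groups. Its log2 fold change was -0.03 ± 0.12 (SE, edgeR adjusted p = 0.924). Fibromodulin, which binds collagen type I, had 11, 5 and 8 counts in siCTRL and 13, 21 and 6 counts in siCOX7A2L, or 0.344 to 0.726 and 0.674 to 1.47 CPM. It passed the filter on low counts, but at this depth its log2 fold change was 0.91 ± 0.54 (SE, edgeR adjusted p = 0.409). That value rests on pair 2, with 5 and 21 counts, and fell to 0.32 without it. Lumican, which is abundant in the cornea and in connective tissue, was too low to compare. It had 0, 1 and 0 counts in siCTRL and 0, 0 and 2 in siCOX7A2L, which is under the 3 counts that a library at 0 allows, or 0.174 to 0.337 CPM.

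Versican, the large chondroitin sulfate proteoglycan, was higher in each siCOX7A2L library than in any control. It stood at 361, 343 and 338 CPM in siCTRL replicates 1, 2 and 3 and at 511, 506 and 404 CPM in siCOX7A2L. The controls lay close together, and the siCOX7A2L library of replicate 3 was the lowest of its group. The group means were 347 ± 11.96 and 474 ± 60.6 CPM (SD, n = 3 each). The log2 fold change was 0.44 ± 0.12 (SE), which did not pass (edgeR adjusted p = 0.103). Vcan passed with DESeq2 and the same block (adjusted p = 0.0398), with edgeR on an unfiltered table (0.0254) and in the authors' deposited table (log2 fold change 0.43, adjusted p = 0.00575). It did not pass with edgeR without the block (0.45, adjusted p = 0.754) or scaled by library size alone (0.39, adjusted p = 0.187). On TPM with limma the log2 fold change of Vcan was 0.21 (adjusted p = 0.679). Unlike decorin, versican was not raised in replicate 3. There it differed from the mean of replicates 1 and 2 by -0.06 in siCTRL and by -0.33 in siCOX7A2L on the log2 scale.

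Glypican-1, which is tethered to the membrane by a lipid anchor and helps FGF2 to signal, stood at 991, 1004 and 858 CPM in siCTRL replicates 1, 2 and 3. It stood at 1014, 1281 and 1263 CPM in siCOX7A2L. The groups did not overlap, but siCOX7A2L replicate 1 lay only just above the controls. The log2 fold change was 0.31 ± 0.13 (SE, edgeR adjusted p = 0.252), and -0.01 on TPM, a scale on which the median of all tested genes was -0.21. Glypican-4, another lipid-anchored heparan sulfate carrier, was too low to be tested. It had 2, 3 and 3 counts in siCTRL and 6, 4 and 8 counts in siCOX7A2L, or 0.132 to 0.206 and 0.281 to 0.898 CPM. All control libraries were at or under 3 counts, so no fold is given.

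The syndecans, which span the membrane, did not pass. Syndecan-4, a partner of integrins at focal adhesions, was at 183, 172 and 153 CPM in siCTRL replicates 1, 2 and 3 and at 227, 181 and 214 CPM in siCOX7A2L. It was higher in each pair, yet the groups overlapped, and its log2 fold change was 0.29 ± 0.12 (SE, edgeR adjusted p = 0.260). Syndecan-2 was at 106, 102 and 147 CPM in siCTRL and at 130, 90.2 and 199 CPM in siCOX7A2L, with pair 2 in the opposite direction and the replicate 3 library highest in each group. Its log2 fold change was 0.19 ± 0.14 (SE, edgeR adjusted p = 0.533). Syndecan-1 was at 184, 187 and 201 CPM in siCTRL and at 171, 218 and 211 CPM in siCOX7A2L, with pair 1 in the opposite direction. Its log2 fold change was 0.06 ± 0.12 (SE, edgeR adjusted p = 0.835).

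**Figure D3:**
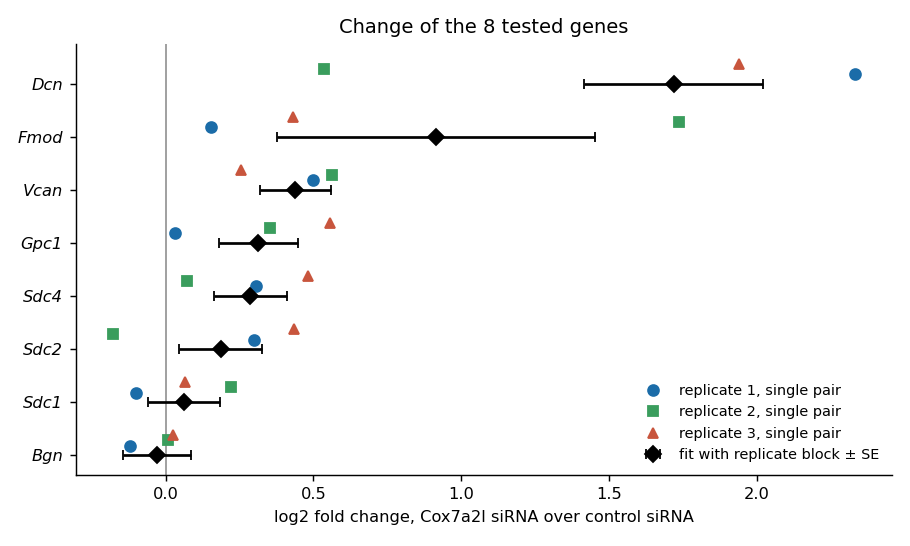
Log2 fold change of the 8 tested genes, siCOX7A2L over siCTRL, from the edgeR fit with the replicate block (black diamonds, bars ± 1 standard error) and in single pairs of the same replicate number (coloured symbols). Dcn is the highest at 1.72, Bgn the lowest at -0.03, and the pairs of Dcn and Fmod lie farthest from each other.

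Of the 10 genes 8 could be tested, and 1 of the 8, Dcn, passed, where 109 of 15022 genes, or 0.726%, passed in all. Since decorin was chosen for this call, nothing is read from the count. At an unadjusted p under 0.05 there were 4 of 8, with Vcan, Gpc1 and Sdc4 besides Dcn, against 17.7% of all tested genes. With DESeq2 2 of 8 passed, Dcn and Vcan, where 3.38% of all genes did, and the same 2 of 10 passed with edgeR on the unfiltered table, where 4.70% did. Without the block 0 of 8 passed with edgeR (1 at an unadjusted p under 0.05), where 0.0133% of all genes did. When the block was replaced by a term for replicate 3 alone, 1 of 8, Dcn, passed, where 1.31% did. The median log2 fold change of the 8 was 0.30, beside 0.01 over all tested genes, and 0.03 on TPM, beside -0.21. It was above 0 in 7 of 8, as in 51.1% of all tested genes. The groups did not overlap in 2 of 8, Vcan and Gpc1, with siCOX7A2L higher in both. Groups did not overlap in 15.6% of all tested genes, and in 7.96% with siCOX7A2L higher. In all, 5 of 8 were higher in all 3 pairs, as were 21.2% of all tested genes. The plot of fold changes shows these pairs.

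Of 130 other genes of proteoglycan biology in 8 lists drawn up by function, 129 had a row and 93 could be tested. Of the 93, 2 rose, 2 fell and 89 did not pass, or 4.30% called beside 0.726% of all tested genes. The lists were drawn up with earlier results of these data known, so nothing is read from this share. The median log2 fold change of the 93 was 0.09.

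Those that rose encode a matrix protease and a matrix protein. Adamts5, which cleaves versican and aggrecan, stood at 30.5, 31.3 and 78.5 CPM in siCTRL replicates 1, 2 and 3 and at 48.0, 51.3 and 168 CPM in siCOX7A2L (log2 fold change 0.83 ± 0.14 SE, edgeR adjusted p = 0.0321). It was higher in each pair, and like decorin it was highest in the replicate 3 libraries, so the groups overlapped. Fn1, the matrix protein fibronectin, to which decorin binds, stood at 2704, 2753 and 5980 CPM in siCTRL and at 4595, 4203 and 12181 CPM in siCOX7A2L (log2 fold change 0.80 ± 0.14 SE, edgeR adjusted p = 0.0321). It showed the same pattern over the libraries.

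Those that fell encode a hyaluronan synthase and a receptor. Has1, a synthase of the hyaluronan that versican binds, went from 29.6, 27.0 and 11.5 CPM in siCTRL to 10.1, 18.0 and 4.15 CPM in siCOX7A2L (log2 fold change -1.17 ± 0.21 SE, edgeR adjusted p = 0.040). It was lower in each pair, with overlapping groups. Has2, a more abundant hyaluronan synthase named after its value was seen, did not fall. It stood at 41.8, 38.7 and 20.4 CPM in siCTRL and at 55.3, 45.9 and 20.2 CPM in siCOX7A2L (log2 fold change 0.22, edgeR adjusted p = 0.461). Met, the receptor for hepatocyte growth factor and a known target of decorin, went from 134, 138 and 144 CPM to 87.9, 91.8 and 73.3 CPM (log2 fold change -0.72 ± 0.13 SE, edgeR adjusted p = 0.0388), with all siCOX7A2L libraries under all controls. None of the 4 called genes passed without the block (edgeR adjusted p = 0.735 to 0.834) or on TPM with limma (0.197 to 0.414). Scaled by library size alone, Met and Has1 just missed the threshold (edgeR adjusted p = 0.0556 and 0.0502). When pair 3 was left out Fn1 still passed (0.0379), while Adamts5, Met and Has1 did not (0.0669, 0.0669 and 0.120), with log2 fold changes of 0.68, -0.60 and -1.06.

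**Figure D4:**
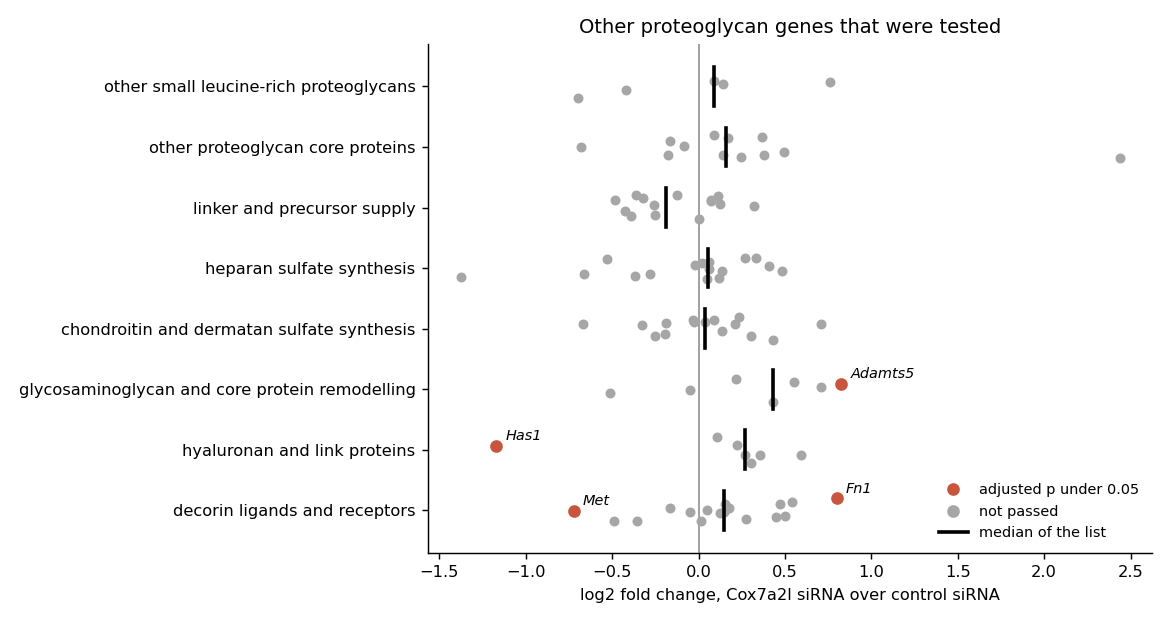
Log2 fold change, siCOX7A2L over siCTRL, of the tested genes in 8 lists of proteoglycan biology (dots, red for adjusted p under 0.05, black bar for the median of the list, vertical spread within a row for legibility only). Adamts5 and Fn1 lie to the right at 0.83 and 0.80, Has1 and Met to the left at -1.17 and -0.72, and the other 89 genes are grey.

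Other core proteins and the enzymes that build the chains did not pass with edgeR. Of 12 tested core proteins outside the small leucine-rich family 0 passed, 3 were under an unadjusted p of 0.05 and 1, Col18a1, passed with DESeq2 (median 0.16, and -0.11 on TPM). Hspg2 (perlecan) and Col18a1 (collagen XVIII), the heparan sulfate proteoglycans of basement membranes, had log2 fold changes of 0.37 and 0.50 (edgeR adjusted p = 0.246 and 0.0927). Gpc2, named after its value was seen, had 4, 4 and 3 counts in siCTRL and 16, 10 and 23 in siCOX7A2L. Its controls lay at the floor of 3 counts or just above it, so no fold is given, and it did not pass (edgeR adjusted p = 0.0829). Of 5 other tested small leucine-rich proteoglycans 0 passed with edgeR or DESeq2 and 0 were under an unadjusted p of 0.05 (median 0.09, and -0.18 on TPM). Ogn (osteoglycin) and Podnl1, the most abundant of them, had log2 fold changes of 0.09 and -0.42 (edgeR adjusted p = 0.827 and 0.325). Podnl1 passed when pair 2 was left out (-0.79, edgeR adjusted p = 0.0037).

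Of 14 tested genes for the linker sugars and precursors 0 passed with either tool and 4 were under an unadjusted p of 0.05. Their median was -0.19, and -0.38 on TPM, and 6 of them were lower in all 3 pairs, as were 20.8% of all tested genes. Ugdh, which makes the UDP-glucuronate of the chains, and Fam20b, the xylose kinase of the linker, had log2 fold changes of -0.36 and -0.32 (edgeR adjusted p = 0.167 and 0.229). Of 16 tested genes of heparan sulfate synthesis 0 passed with edgeR, 4 were under an unadjusted p of 0.05 and 1, the epimerase Glce, passed with DESeq2 (median 0.05, and -0.24 on TPM). Ndst1, a sulfotransferase, and Ext1, a chain polymerase, had log2 fold changes of 0.12 and 0.33 (edgeR adjusted p = 0.655 and 0.168). Of 15 tested genes of chondroitin and dermatan sulfate synthesis 0 passed with either tool and 3 were under an unadjusted p of 0.05 (median 0.04, and -0.19 on TPM). The chain polymerase factors Chpf2 and Chpf had log2 fold changes of 0.30 and 0.23 (edgeR adjusted p = 0.347 and 0.368).

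The other 3 lists held the 4 calls. Of 7 tested genes of chain and core remodelling 1 rose and 0 fell, with 2 called by DESeq2, Sulf2 and Adamts5 (median 0.43, and 0.13 on TPM). Of 7 tested genes of hyaluronan and link proteins 0 rose and 1 fell, with 2 called by DESeq2, Has1 and Cemip2 (median 0.27, and -0.09 on TPM). Of 17 tested ligands and receptors of decorin 1 rose and 1 fell, with 4 called by DESeq2, Met, Col3a1, Fn1 and Thbs1 (median 0.15, and -0.14 on TPM). Mstn (myostatin), a ligand of decorin in muscle, was at 0 counts in every library.

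The genes whose pattern was most like that of decorin were found by Pearson's r of log2 CPM over the 6 libraries, among 11210 genes with a mean of at least 2 CPM. They were Htr1b, a serotonin receptor, Srpx2, a secreted sushi-repeat protein, Senp7, a SUMO protease, Epha1, an ephrin receptor, and As3mt, an arsenic methyltransferase, with r between 0.992 and 0.996. These are a description of 6 points that share the separation of the replicate 3 libraries, and 1.70% of the genes compared had r above 0.95. The match also takes in the difference between the groups, for which decorin was chosen. Higher levels of these genes in siCOX7A2L thus follow in part from how they were picked, and their fold changes are description only. Epha1 stood at 23.0, 21.7 and 48.8 CPM in siCTRL and at 43.4, 28.4 and 103 CPM in siCOX7A2L, with a log2 fold change of 0.80 (edgeR adjusted p = 0.0512). The others had log2 fold changes of 0.61 (Htr1b), 0.17 (Srpx2), 0.27 (Senp7) and 1.07 (As3mt), and did not pass (edgeR adjusted p = 0.124, 0.543, 0.390 and 0.0820). Among the proteoglycans themselves, Sdc2 was nearest to decorin (r = 0.93), followed by Bgn (0.76), with Sdc4 at 0.41 and Vcan at 0.14.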

How the data were processed

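The authors deposited estimated counts per gene, not scaled to depth, and TPM values, which correct for transcript length and depth. Their deposited comparison gives, per the file headers, scaled counts (a normalised signal), log2 fold changes with standard errors, a test score, and p-values with adjusted p-values. Per the submitters' processing notes, Salmon 0.13.1 was among the tools, with Trim Galore 0.6.4 and DESeq2 1.30.1, on genome build mm39, and the annotation release is not given in the sources used here. One gene row without a symbol took 36.9% to 53.6% of TPM, so TPM of other genes falls where that row is high. Its share was 42.5%, 41.4% and 36.9% in siCTRL replicates 1, 2 and 3 and 44.2%, 46.3% and 53.6% in siCOX7A2L, higher in each pair. With that row left out and TPM rescaled, Gpc1 had means of 371 in siCTRL and 425 in siCOX7A2L. Sdc1 had 112 and 116, and Sdc2 had 49.2 and 54.2. No fit was made on the rescaled values.

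Symbols were joined by identifier without version to GENCODE M21, and 97.6% of rows received one. Gene coordinates are not given, because that reference is GRCm38. Rounded counts entered edgeR 4.0.16 under R 4.3.3 (TMM, default filter by group, robust glmQLFit and glmQLFTest, Benjamini-Hochberg adjustment). CPM use the TMM-scaled library sizes. A standard error is the log2 fold change over the root of F. Log2 CPM use a prior count of 2, in the plotted single pairs, the replicate 3 differences and Pearson's r. The times given for the pairs of Dcn and of the muscle markers are ratios of CPM without it. DESeq2 1.42.0 and limma 3.58.1 on log2(TPM + 0.5) were alternatives, as were no block, a term for replicate 3, other scalings and filters, counts not rounded, and leaving out pairs or libraries. The pseudocount understates changes of low genes.

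The labels number the replicates 1 to 3 in each group. Deviations from the group means correlated at 0.53, 0.45 and 0.67 between libraries of the same number, against at most 0.44 across numbers. Deviations within a group sum to 0, so a distinct replicate 3 makes replicates 1 and 2 deviate alike in both groups. Across replicates 1 and 2 the values were 0.44 and 0.43, so these correlations tell pairs 1 and 2 apart only narrowly. In simulated counts the fit recovered 67% of 2-fold changes and 95% of 4-fold changes, and called 0.034% of unchanged genes. Those counts were drawn with the spread typical of genes at the same level, not with each gene's own spread. Genes that vary more than that are not covered.

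The genes and lists were chosen with earlier results of these data known. Named were the 10 genes, Cox7a2l, up to 2 called genes per direction of each list (otherwise its 2 most abundant tested members), and the 5 genes most like Dcn. For marker lists of other cell types only levels are given. The siRNA sequences and the promoters of Dcn, Lum, Gpc1 and Sdc2 were not used here.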

Additional observations from a re-analysis of the deposited data

How the results depend on the processing

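Of all tested genes 109 passed with the replicate block, against 2 without it (954 at an unadjusted p under 0.05), 197 with a term for replicate 3, 58 with scaling by library size, 507 with DESeq2, 1257 without a filter on low counts and 3 by limma on TPM. Leaving out a pair or library gave 0 to 1210, with 373, 1210 and 51 without pairs 1, 2 and 3. Of the 10 proteoglycan genes, 1 passed with the block, 0 without it, 0 by library size, 0 on TPM, 2 with DESeq2 and 2 without a filter, and 0 to 1 when a pair or library was left out. Of the other genes of proteoglycan biology 4 passed with the block, 0 without it, 0 on TPM, 2 by library size, 10 with DESeq2, 16 without a filter and 0 to 18 with a pair or library left out. The counts of the 10 genes and of the other proteoglycan genes were within 1.5 times with DESeq2's size factors, counts not rounded, a minimum mean of 2 CPM and the term for replicate 3. The causes were not tested.

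On TPM the sign turned for Gpc1 (-0.0098), Sdc1 (-0.16), Sdc2 (-0.088), Ogn (-0.18), Ndst1 (-0.076), Chpf (-0.044) and Srpx2 (-0.11), where the median of all tested genes was -0.21. It also turned when a pair or library was left out for Bgn (range -0.35 to 0.27), Sdc1 (-0.027 to 0.17), Sdc2 (-0.11 to 0.46), Ogn (-0.11 to 0.30), Podnl1 (-0.86 to 0.0014), Tnnt1 (-0.15 to 4.19) and Acta1 (-1.60 to 3.75). Of these only Tnnt1 and Acta1 had passed in the fit with the block, and Podnl1 passed without pair 2. With a pair or library left out, Dcn ran from 0.33 to 3.16 and Vcan from 0.37 to 0.54. On TPM they stood at 1.11 and 0.21.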
